A study of Mus musculus with 6 samples.

Results

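The tricarboxylic acid (TCA) cycle enzymes described here are products of 9 mouse genes, Cs, Idh3a, Idh3b, Idh3g, Ogdh, Dlst, Suclg1, Fh1 and Mdh2. A probe set was taken wherever the array annotation gave it exactly 1 of these gene symbols, which yielded 22 of the 45037 probe sets on the array. Brown adipose tissue (BAT) had been taken from 3 mice that lack KRAP (KO) and from 3 wild-type (WT) mice, and each animal had an Affymetrix mouse genome array of its own. All were 32 weeks old, fed normal chow, and formed littermate pairs numbered 1 to 3 from a line backcrossed 6 times to C57BL6/J. In KO mice a neomycin cassette, set in the opposite orientation, had replaced exons 11 to 16 of KRAP in the germline, so the deletion was not limited to fat and left the other exons in place. KRAP encodes an actin-interacting protein.

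The TCA cycle runs in the mitochondrial matrix. It takes up acetyl groups derived from glucose, fatty acids and amino acids, releases their carbon as carbon dioxide, and passes their electrons to the respiratory chain. Brown adipocytes are densely packed with mitochondria and burn these fuels to make heat, and the enzymes of the cycle are abundant in BAT. The comparison asked whether transcripts of the cycle differed between KO and WT BAT, a tissue whose fuel use the study examined.

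Signals below are multiples of the median signal of the same array, and differences are log2 of KO minus log2 of WT. KO 2 and WT 3 had array medians of 20.1 and 20.4 intensity units, against 16.6 to 18.0 on the other 4 arrays. WT 2 differed from the rest by its actin controls, where the 3' end was 3.80 times as bright as the 5' end against 1.91 to 2.58 times elsewhere. Its pyruvate carboxylase control ratio was 52.9 against 8.99 to 25.3, and its 18S ribosomal RNA signal 1731 intensity units against 112 to 215. Differences without pair 2 are given below for each of the 9 genes, but not for other genes of the pathway. For KRAP itself, now named Itprid2, the KO animals of pairs 1 to 3 read 47.0, 35.1 and 41.4 on its 1 probe set against 55.3, 56.6 and 42.2 for WT, a log2 difference of -0.32 (adjusted p = 0.720). Whether it lies within the deleted exons is not known here, and it therefore could not check the labels. Of 8 brown adipocyte markers 7 had a probe set, and all 7 lay above the array median on every array. The mean of each of the 22 TCA cycle probe sets exceeded the array median, and they were tested among 22356 probe sets in all.

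None of the 9 genes passed the test between KO and WT. With limma and the littermate pair as a block, 0 of 22 probe sets had an adjusted p under 0.05, beside 0 of all 22356 (0.00%). Unadjusted, 0 of 22 were under 0.05, beside 8.55% of all tested, 5.14% lower and 3.41% higher in KO, and the lowest unadjusted p was 0.0756, for a probe set of Idh3a. On the brightest probe set of each gene the log2 differences ran from -0.25 for Fh1 to -0.042 for Cs. All 9 were below 0, as were those of 61.5% of the 11140 genes tested. The median over the 9 genes was -0.14, against -0.071 over all genes. At their widest the 95% confidence intervals of these brightest probe sets ran from a 1.72-fold fall to a 1.34-fold rise. By the filter of the study, 1.5-fold in every pair, 0 of 22 were lower and 0 higher, beside 0.819% and 0.555% of all tested. In bulk tissue, fewer cells of a type and less RNA in each cell cannot be told apart.

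**Figure D1:**
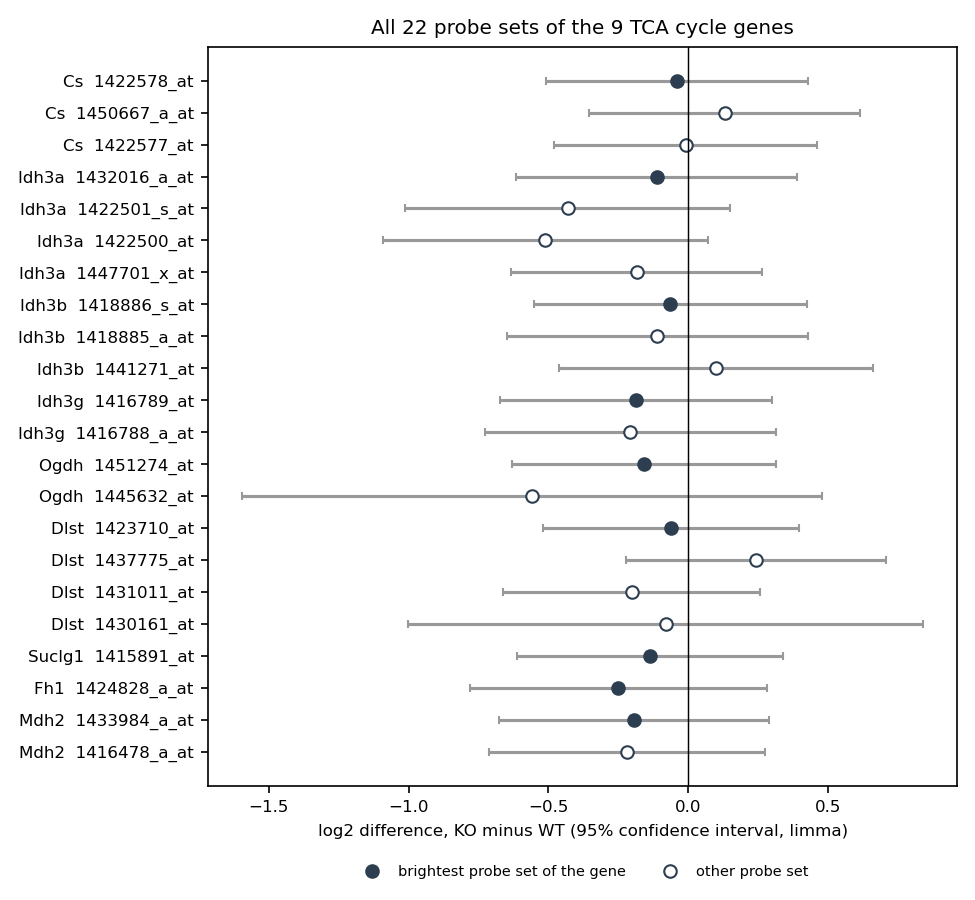
Log2 differences (KO minus WT, horizontal axis) with 95% confidence intervals from limma for the 22 probe sets of the 9 TCA cycle genes, 1 row for each gene symbol and probe set. Filled points are the brightest probe set of a gene and open points the others, and all 22 intervals cross 0.

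Promoters are shown for Idh3b, Idh3g and Dlst, the members whose window held a motif of the ETS family of transcription factors, to which a known regulator of mitochondrial genes belongs. The windows (RefSeq, GRCm38.p6) run from 250 bases before to 50 after an annotated start site. Of the 9 genes 8 had a window, and Idh3a was not among them. The motifs searched, on both strands, were the estrogen-related receptor element TNAAGGTCA, the palindromic NRF1 site and the ETS site CCGGAAG, which stands in capitals and reads CTTCCGG where it lies on the opposite strand.
Idh3b, chr2:130284402-130284701, minus strand: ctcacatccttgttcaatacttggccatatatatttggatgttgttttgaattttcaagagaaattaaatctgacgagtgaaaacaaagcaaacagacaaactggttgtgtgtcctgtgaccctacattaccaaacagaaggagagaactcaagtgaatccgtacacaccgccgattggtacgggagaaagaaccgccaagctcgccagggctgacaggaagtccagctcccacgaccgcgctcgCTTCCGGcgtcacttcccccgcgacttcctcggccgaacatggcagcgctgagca
Idh3g, chrX:73786848-73787147, minus strand: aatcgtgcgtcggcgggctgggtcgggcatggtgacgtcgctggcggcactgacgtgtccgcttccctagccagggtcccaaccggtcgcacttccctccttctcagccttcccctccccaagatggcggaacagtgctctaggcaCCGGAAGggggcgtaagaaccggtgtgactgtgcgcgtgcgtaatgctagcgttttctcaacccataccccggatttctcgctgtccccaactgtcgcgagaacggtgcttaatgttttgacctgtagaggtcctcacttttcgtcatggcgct
Dlst, chr12:85110583-85110882, plus strand: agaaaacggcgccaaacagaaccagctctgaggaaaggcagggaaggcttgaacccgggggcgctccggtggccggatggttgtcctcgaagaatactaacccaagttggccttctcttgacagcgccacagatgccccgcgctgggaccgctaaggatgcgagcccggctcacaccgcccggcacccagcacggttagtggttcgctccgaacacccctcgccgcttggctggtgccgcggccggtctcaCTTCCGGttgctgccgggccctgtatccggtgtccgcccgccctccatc
The ETS site was found in 3 of the 13 windows of these genes, of which 6 belong to Ogdh, and in 8.86% of all 32851 windows of 300 bases. The other motifs were found in 0 of 13, beside 1.28% of windows for the receptor element and 0.971% for the NRF1 site. A match describes the letters of a window, and a missing match says nothing of the factor.

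The cycle opens with Cs, citrate synthase, which joins acetyl-CoA to oxaloacetate. On its brightest probe set KO 1 to 3 read 408, 349 and 399, and WT 1 to 3 read 409.7, 416 and 363. The groups overlapped, with KO 2 the lowest array. The mean was 385 ± 32.03 for KO against 396 ± 28.9 for WT (SD, n = 3), and the log2 difference was -0.042 (interval -0.51 to 0.43, limma adjusted p = 0.973), or 0.065 without pair 2. The other probe sets of Cs gave 0.13 and -0.0086, so the 3 shared no direction.

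NAD-dependent isocitrate dehydrogenase carries out the first step of the cycle that releases carbon dioxide. Its catalytic subunit is encoded by Idh3a and its other subunits by Idh3b and Idh3g. The brightest probe set of Idh3a read 540.3, 363 and 452 in the KO animals of pairs 1 to 3 and 594, 481 and 393 in their WT littermates (log2 difference -0.11, interval -0.61 to 0.39, adjusted p = 0.925). KO lay below WT in pairs 1 and 2 and above it in pair 3, and the groups overlapped. Its signal reached 61.5% of the highest on an array.

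Dimmer probe sets of Idh3a gave larger differences. On 1422500_at, KO 1 to 3 read 48.0, 32.1 and 40.8 while WT 1 to 3 read 59.5, 67.3 and 45.4. The KO animal was the lower of each pair, by KO over WT ratios of 0.807, 0.476 and 0.898, but KO 1 still lay above WT 3. The mean was 40.3 ± 7.98 for KO against 57.4 ± 11.1 for WT (SD, n = 3), and the log2 difference was -0.51 (interval -1.09 to 0.070, adjusted p = 0.637). On 1422501_s_at, KO 1 to 3 read 96.2, 63.0 and 83.6 and WT 1 to 3 117, 124 and 85.7, again with the KO animal lower in each pair (log2 difference -0.43, adjusted p = 0.676). The dimmest, 1447701_x_at, gave -0.18. Without pair 2, which holds the array with the actin ratio of 3.80, the differences were -0.23 on 1422500_at and -0.16 on 1422501_s_at, and that of the brightest probe set turned to 0.032. The part of RNA quality in these values was not tested.

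Idh3b read 453, 375 and 465 in KO against 486, 466 and 399 in WT, pairs 1 to 3, on its brightest probe set (log2 difference -0.064, interval -0.55 to 0.42). A second bright probe set gave -0.11, and a dim one gave 0.10. Idh3g read 434, 337 and 455 in KO against 523, 442 and 424 in WT on its brightest (log2 difference -0.19, interval -0.67 to 0.30), and its second probe set gave -0.21. On the 4 bright probe sets of these subunits KO lay lower in pairs 1 and 2 and higher in pair 3, the groups overlapped, and the adjusted p lay between 0.840 and 0.956. Without pair 2 the differences of Idh3g were -0.085 and -0.020, and those of Idh3b turned to 0.059 and 0.084.

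In the 2-oxoglutarate dehydrogenase complex, Ogdh encodes the first component and Dlst the succinyltransferase core. The brightest probe set of Ogdh read 196, 146 and 188 in KO against 221, 188 and 179.7 in WT (log2 difference -0.16, interval -0.63 to 0.31, adjusted p = 0.872, and -0.057 without pair 2), with KO lower in pairs 1 and 2 only. A dim probe set, 1445632_at, had the most negative difference of the 22, -0.56. It read 1.79 in KO 2 and 6.98 in WT 2 against 3.70 to 4.34 on the other 4 arrays, and without pair 2 the difference turned to 0.15. This probe set and 1422500_at of Idh3a were the 2 of 22 with a log2 difference beyond 0.5 in size, beside 13.1% of all tested.

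For Dlst the bright probe set read 180.4, 149 and 173 in KO against 181, 175 and 166 in WT (log2 difference -0.062, adjusted p = 0.955, and 0.024 without pair 2). Its 3 dim probe sets disagreed in direction. On 1437775_at every KO animal, at 11.7, 11.7 and 11.3, lay above every WT animal, at 11.2, 8.83 and 9.42, and the log2 difference was 0.24 (interval -0.22 to 0.71, adjusted p = 0.774). It was the 1 probe set of 22 whose groups did not overlap, beside 11.7% of all tested. By contrast 1431011_at was lower in KO in each pair (-0.20), and 1430161_at gave -0.081, or 0.52 without pair 1.

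The later steps have bright probe sets only. Suclg1, the alpha subunit of succinyl-CoA synthetase, read 380.3, 329.9 and 392 in KO against 431, 417 and 365 in WT (log2 difference -0.14, interval -0.61 to 0.34, adjusted p = 0.895, and -0.038 without pair 2). Fh1 encodes fumarase, which makes malate, and had the most negative value among the brightest probe sets. KO 1 to 3 read 262, 235 and 287 there and WT 1 to 3 read 323, 355 and 258. KO 1 and KO 3 lay above WT 3 and below the other WT animals. The mean was 261 ± 26.2 for KO against 312 ± 49.6 for WT (SD, n = 3), and the log2 difference was -0.25 (interval -0.78 to 0.28, adjusted p = 0.805), or -0.075 without pair 2 and -0.45 without pair 3. Mdh2, mitochondrial malate dehydrogenase, restores oxaloacetate. It read 382, 341 and 437 in KO against 440.2, 461 and 419.9 in WT (log2 difference -0.19, adjusted p = 0.838, and -0.074 without pair 2), and its second probe set gave -0.22, or -0.071 without pair 2.

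**Figure D2:**
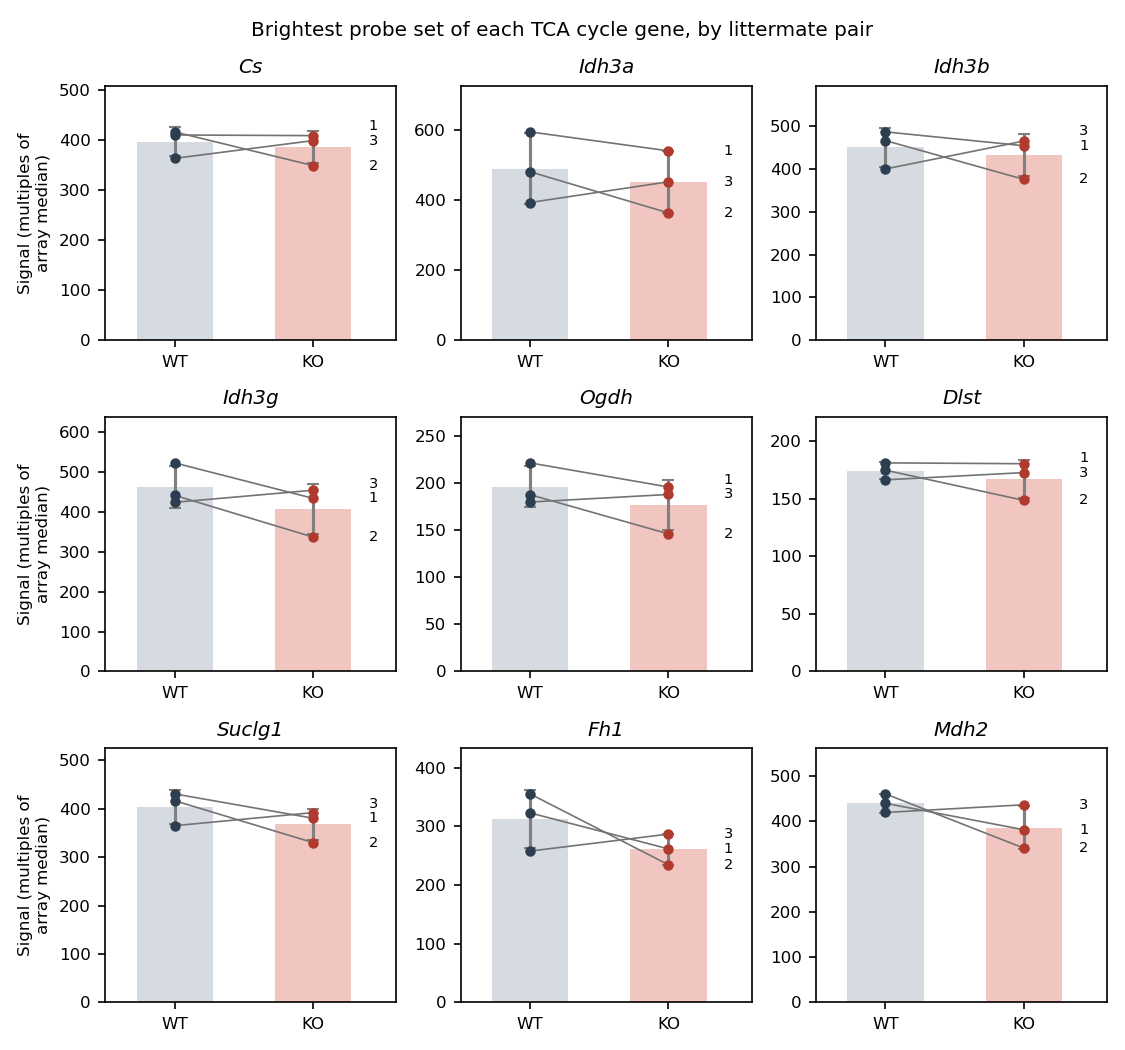
Signals of the brightest probe set of each TCA cycle gene after division by the array median, on linear axes that start at 0. Bars are means with SD (n = 3), points are arrays, and lines connect the animals of a littermate pair, numbered beside the KO points. In all 9 panels KO lies below WT in pairs 1 and 2 and above it in pair 3. Under the other scalings most genes lost this direction in pair 3, and some lost it in pair 1 or 2.

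After division by the array median, the 9 genes shared a direction within each pair, though Cs (-0.0044) and Dlst (-0.0057) were near 0 in pair 1. On the brightest probe sets, 9 of 9 were lower in KO in pair 1, 9 of 9 were lower in pair 2 and 9 of 9 were higher in pair 3, beside 53.2%, 71.8% and 57.1% of all genes. Over all 22 probe sets, 18, 19 and 4 were lower in pairs 1 to 3, beside 52.8%, 66.0% and 43.5% of all tested. KO 2 was the lowest of the 6 arrays for 9 of 9 genes, beside 23.2% of all genes. At this scaling 0 of 9 thus lay on the same side in every pair, beside 19.7% lower and 10.9% higher among all genes. Of the 22 probe sets 4 were lower in every pair, 3 of Idh3a and 1 of Dlst, beside 18.4%, and 1 of Dlst was higher, beside 12.4%.

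This pair pattern depended on how the arrays were scaled. After division by the array median, the median differences of the 9 genes were -0.18, -0.36 and 0.10 in pairs 1 to 3, where all genes tested had -0.030, -0.24 and 0.057. With signals as deposited they were -0.072, -0.083 and -0.10, where all genes had 0.076, 0.045 and -0.14, and pair 3 had turned from higher to lower in KO. After quantile normalization they were -0.14, -0.13 and -0.092, where all genes had -0.0070, -0.029 and 0.0046. Relative to the median of all genes the 9 lay at -0.15, -0.13 and 0.046 with the array median, at -0.15, -0.13 and 0.047 as deposited and at -0.13, -0.10 and -0.10 with quantiles. The array median and the deposited signals differ by 1 factor for each array, so these relative values had to be nearly equal between them, and only quantile normalization is a separate comparison. It kept the sign in pairs 1 and 2 and turned it in pair 3. The genes no longer shared a direction within each pair. Those lower in KO numbered 6, 7 and 7 of 9 in pairs 1 to 3 as deposited, and 8, 7 and 7 with quantiles. The shares over all genes for these counts are not given here. Counted by gene, 5 of 9 (Idh3g, Ogdh, Suclg1, Fh1 and Mdh2) were lower in every pair with signals as deposited and again after quantile normalization, beside 17.4% and 18.2% of all genes. With either other scaling 10 of 22 probe sets were lower in every pair, beside 15.9% of all tested as deposited and 17.0% with quantiles, and 2 were higher, beside 14.9% and 17.0%.

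**Figure D3:**
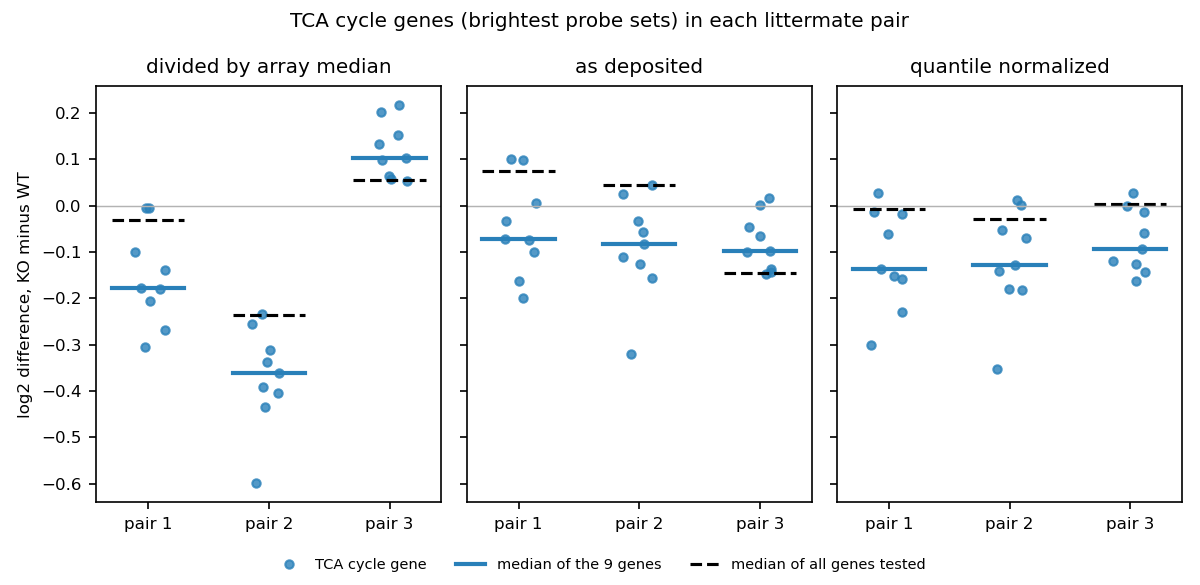
Log2 difference (KO minus WT, vertical axis) in each littermate pair for the brightest probe set of each of the 9 TCA cycle genes, with arrays divided by their median, as deposited, or quantile normalized. Points are genes, solid lines their median and dashed lines the median of all genes tested. In pair 3 the 9 genes lie above 0 with the array median, while 7 of 9 lie below 0 in each of the other panels.

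The log2 signals of the 9 genes were also compared with each other over the 6 arrays. All 36 gene pairs had a Pearson r above 0, from 0.48 to 0.98 with a median of 0.87, a description only, since the genes share arrays and their scaling. Without KO 2 the median r was 0.71, with 34 of 36 above 0. It was 0.45 as deposited, with 31 of 36 above 0, and 0.39 after quantile normalization, with 30 of 36. Outside the pathway, the profiles most like the mean of the 9 over the 6 arrays, scaled to the array median, were those of Cox8a, a cytochrome c oxidase subunit (r = 0.997), Fam120aos (0.995), Cul2 (0.995), Wbp4 (0.994) and 3110021A11Rik (0.994). Of 11105 genes ranked, 239 (2.15%) had an r above 0.9, and the median r was 0.24.

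Skeletal muscle markers were uneven over the arrays. Of 8 markers, contractile proteins and creatine kinase among them, 7 lay above the array median on every array, and their summed signal was 624 in KO 2 and 243 in WT 3 against 18.7 to 80.4 on the other 4. After division by the array median the 9 TCA cycle genes also stood lowest in KO 2 and WT 3, at -0.27 and -0.075 from their own means on the log2 scale (median over the 9). With other scalings this did not hold for WT 3, which was the highest array for 4 of 9 genes as deposited and for 5 with quantiles. KO 2 was the lowest for 5 and 4. The shares of all genes for these counts are not given here. Divided by the array median, the summed signal of the 7 brown adipocyte markers was 1557 to 2149 in KO and 1552 to 2169 in WT. This sum was lowest in WT 3 and KO 2 as well, the arrays with the highest medians. Sums at other scalings are not given here. The part of muscle RNA in the TCA cycle signals was not tested. Macrophage markers (85.9 to 100.04 in KO, 75.7 to 105 in WT) and endothelial markers (32.3 to 34.6 in KO, 32.1 to 46.6 in WT) overlapped between groups. White adipocyte markers did not (20.9 to 31.7 in KO, 50.9 to 81.8 in WT), but only 3 of the 6 lay above the array median on every array. Of the 5 tested, 4 were lower in KO with an unadjusted limma p under 0.05, beside 4.98% of all genes, in a list chosen with earlier results known. Their sum is thus no independent result. Npr3 alone gave 14.8 of it in KO 1 and 52.3 in WT 3, and Hoxc8 overlapped between groups. Hepatocyte markers summed to 54.98 in KO 3 against 2.49 to 3.70 elsewhere.

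**Figure D4:**
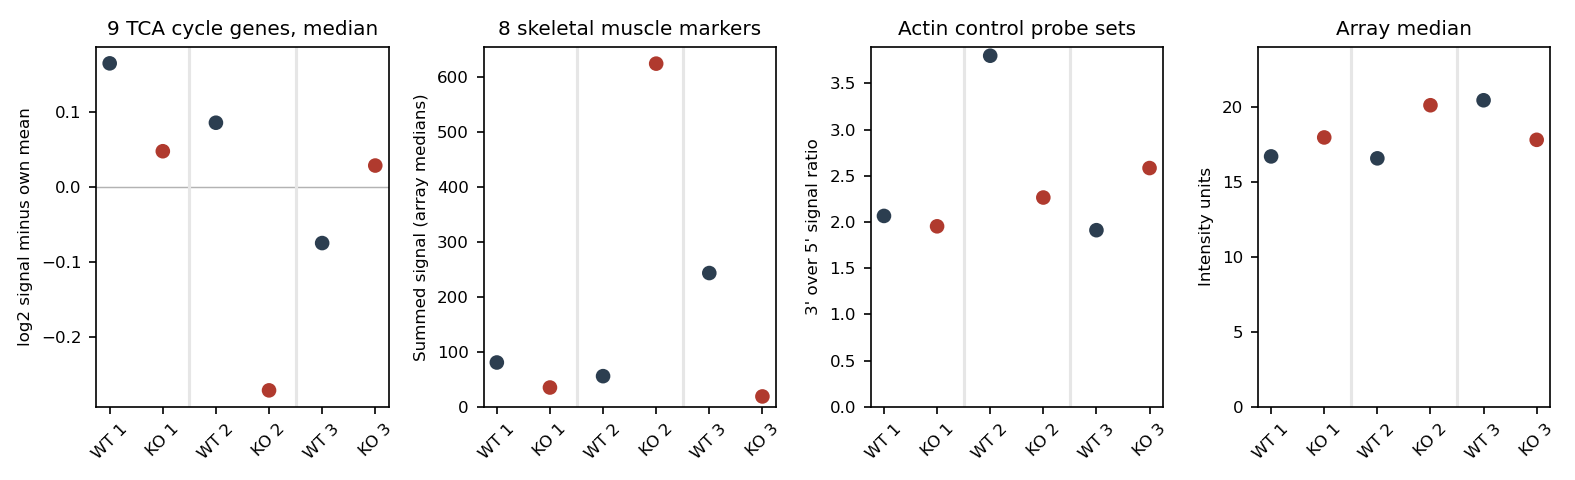
By array and littermate pair (WT dark, KO red), from left to right: the median over the 9 TCA cycle genes of log2 signal minus the mean of each gene, after division by the array median; the summed signal of 8 skeletal muscle markers in array medians; the 3' over 5' signal ratio of the actin controls; and the array median in intensity units. KO 2 and WT 3 have the lowest TCA cycle values at this scaling and the highest muscle sums and array medians, and WT 2 has the highest actin ratio.

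Other subunits of the cycle were read from a list of 10, of which 8 had a tested probe set. Their median log2 difference was -0.028 (range -0.15 to 0.24), and 0 of 8 passed. After division by the array median 1 was higher and 0 lower in every pair, beside 10.9% and 19.7% of all genes. That 1 was Idh2, the mitochondrial NADP-dependent isocitrate dehydrogenase. KO 1 to 3 read 86.2, 82.6 and 89.0 and WT 1 to 3 read 67.0, 71.5 and 80.7. At this scaling every KO animal lay above every WT animal, beside 11.7% of all probe sets tested whose groups did not overlap. With signals as deposited KO 3 lay below WT 3, and the groups overlapped. The log2 difference of 0.24 (interval -0.21 to 0.69), from signals divided by the array median, had a limma adjusted p of 0.772.

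Enzymes and carriers that feed or drain the cycle numbered 18, all tested, with a median of -0.20. None passed. After division by the array median, 6 of 18 were lower in KO and 1 was higher in every pair, beside 19.7% and 10.9% of all genes. Values are those of the brightest probe set of each gene, and dimmer ones, some with larger differences, are not given here. Of the 18, 2 had an unadjusted limma p under 0.05 on that probe set, both lower, beside 4.98% of all genes. Those 2 enzymes act on malate and citrate in the cytosol and serve lipid synthesis. Me1, malic enzyme, read 150.1, 142 and 131 in KO against 259, 291 and 143 in WT, a log2 difference of -0.65 (interval -1.22 to -0.082, adjusted p = 0.538), and WT 3 lay within the range of the KO animals. Acly, ATP citrate lyase, read 337, 372 and 397 in KO against 538, 596 and 471 in WT, with no overlap (log2 difference -0.53, interval -1.02 to -0.050, adjusted p = 0.554).

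The pyruvate dehydrogenase complex, by which carbon from glucose enters, held 3 of the 6 that were lower in every pair, Pdhb (-0.49), Pdhx (-0.34) and Dlat (-0.30). For these 3 the KO over WT ratio was lowest in pair 2, which holds WT 2, at 0.544, 0.627 and 0.679. Other listed subunits of the complex were Pdha1 (-0.21) and Dld (-0.092), the latter from the list of other subunits, both named here after their values were seen. After division by the array median both were lower in pairs 1 and 2 and higher in pair 3. With signals as deposited both were lower in KO in every pair, beside 17.4% of all genes. Got2, mitochondrial aspartate aminotransferase, was the last of the 6 (-0.33), but with signals as deposited it was higher in KO in pair 2. Glud1, glutamate dehydrogenase, which yields 2-oxoglutarate, was the 1 that was higher, at 61.7, 61.0 and 75.9 in KO against 54.3, 56.8 and 53.2 in WT (log2 difference 0.27). The limma adjusted p for Pdhb, Pdhx, Dlat, Got2 and Glud1 lay between 0.624 and 0.751.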

How the data were processed

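The authors hybridised biotin-labelled RNA of each animal to 1 array. The deposited file holds signal intensity values on a linear scale, computed by the authors with GCOS, for which the sources used here give no version, algorithm or scaling target. As in the methods of the study, each array was divided by its median. Values under 0.25 were raised to 0.25 before log2, and 64 control probe sets were dropped. Probe sets with a mean above 1 entered limma 3.58.1 in R 4.3.3, fitted on genotype plus pair, and p was adjusted by Benjamini-Hochberg over all 22356. The script was tested on simulated data. The number of arrays limits the precision.

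Pairs are littermates by the design of the study. Deviations from group means correlated by 0.446, 0.0847 and 0.160 within pairs and by -0.359 to 0.281 between them. Symbols were those of the platform annotation, with 34945 probe sets of 1 symbol, 932 of several and 9160 of none, and all 9 members matched RefSeq by gene identifier. A gene is represented by its brightest tested probe set. Named are the 9 members, genes of 2 pathway lists that passed or lay on the same side in every pair, and the 5 most alike profiles. The members and lists were chosen with earlier results of these data known. Alternatives were signals as deposited, quantile normalization, another floor, a pseudocount, other filters, a robust prior with a trend, no block, other probe set choices and each pair left out. Listed genes without a probe set of 1 symbol were not analysed here.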

Additional observations from a re-analysis of the deposited data

How the results depend on the processing

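No member probe set passed in any setting tried, the lowest limma adjusted p being 0.191 (Idh3a 1422500_at, filter above 5). Of 282 recomputed differences 271 kept their sign. Other floors, other filters, the robust prior and the fit without a block left each member difference unchanged, so those signs were bound to hold. All 11 that turned did so with signals as deposited or a pair left out. Over all probe sets 0 passed as reported, 123 with a pseudocount of 1, 40 and 362 with filters above 2 and 5, 311 with a robust prior and a trend on intensity, and 0 to 224 with a pair left out (224 without pair 1). Of the 22 member probe sets, those lower in every pair numbered 4 as reported, 10 as deposited and 10 after quantile normalization. With a pair left out they numbered 4 to 16 (16 without pair 3). There fewer pairs had to share a direction, and the share over all probe sets was not computed. Member probe sets higher in every pair numbered 1 as reported, 2 as deposited, 2 after quantile normalization and 1 to 4 with a pair left out (3 without pair 1, 4 without pair 2). The median over the 9 genes ran from -0.27 without pair 3 to -0.038 without pair 2. Signs turned as deposited for Cs, at 0.020 on 1422578_at and 0.053 on 1422577_at. With a pair left out, sign changes occurred within the ranges -0.13 to 0.065 for Cs 1422578_at, -0.093 to 0.10 for Cs 1422577_at, -0.27 to 0.032 for Idh3a 1432016_a_at, -0.21 to 0.059 for Idh3b 1418886_s_at, -0.31 to 0.084 for Idh3b 1418885_a_at, -0.12 to 0.33 for Idh3b 1441271_at, -0.92 to 0.15 for Ogdh 1445632_at, -0.12 to 0.024 for Dlst 1423710_at and -0.43 to 0.52 for Dlst 1430161_at. The causes were not tested. Without the replicate block the median was -0.14, the same by design, since each pair holds 1 KO and 1 WT array. There 0 probe sets passed over all, so the pairing changed no call. With 3 pairs, differences smaller than the intervals could not be told from 0.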
